A study of Mus musculus with 8 samples.

Results

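Lipid droplets are stores of triglyceride and sterol esters under a single layer of phospholipid, and their size follows from synthesis, coating, fusion and lipolysis. The genes examined here are 10 of the 47643 named genes of the deposited table, chosen by name for these steps: the perilipin coat proteins Plin1, Plin2, Plin3, Plin4 and Plin5, the droplet fusion protein Cidec, the lipases Pnpla2 and Lipe, and the acyltransferases Dgat1 and Dgat2. Dgat1 and Dgat2 add the last fatty acid to diacylglycerol, Pnpla2 (ATGL) removes the first one from triglyceride, and Lipe (HSL) acts mainly on the diacylglycerol that is left. In bone marrow these steps matter because marrow mesenchymal stem cells (MSCs) can become either bone-forming osteoblasts or fat-storing adipocytes.

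RNA-seq compared 2 libraries of wild type MSCs (WT, the Mettl3fl/fl littermates of the study) with 2 libraries of Prx1-cre;Mettl3fl/fl MSCs (cKO), all from C57BL/6 mice. Mettl3 encodes the methyltransferase that writes N6-methyladenosine (m6A) on mRNA, its exons 2 and 3 are floxed, and the Cre is driven by a Prx1 promoter active in limb mesenchyme and not in blood-derived cells. MeRIP-seq, an antibody pull-down of RNA fragments carrying m6A, used 2 immunoprecipitates and 2 inputs of wild type MSCs only. Every sample was cultured for 2 days in osteogenic medium (dexamethasone at 100 nM, β-glycerophosphate at 5 mM and ascorbic acid at 50 μg/ml), so WT and cKO share the medium and the strain, and the age of the mice is not in the labels.

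The expression libraries held 23978099 to 34106693 counts. Mettl3 itself was at 17.6 and 16.9 CPM (counts scaled to library size, per 1000000) in WT and 17.5 and 16.3 CPM in cKO. Its log2 fold change was -0.033 ± 0.093 (SE), with an edgeR adjusted p of 0.824. A gene-level count also takes in exons other than 2 and 3, and no counts by exon were used. Whether the floxed exons were lost in these libraries was therefore not tested. The 2 cKO libraries differed by little more than sampling noise (chi-square over degrees of freedom 1.82, against 32.6 between the WT libraries), and nothing says that libraries of a group came from separate mice, so p-values measure the spread between libraries, which may be technical. Macrophage markers were abundant throughout. The summed level of all 10 was 22573 and 27470 TPM (a level per transcript length that sums to 1000000 in a library) in WT and 31901 and 32167 TPM in cKO, with Lyz2 at 14418 to 21709 TPM and C1qb at 3053 to 4174 TPM. Of the 10, 3 passed the test as higher in cKO and 0 as lower. Lyz2, the largest part of the sum, did not pass (edgeR adjusted p = 0.342). For this and the marker lists below, the shares over all genes tested were 13.7% higher and 16.8% lower. Of 11 adipocyte markers tested, 5 were higher in cKO and 3 lower, and their list summed to 599.5 and 524.6 TPM in WT and 872 and 889.7 TPM in cKO, led by Fabp4 (121 to 271 TPM) and Cebpa (118 to 205 TPM), both higher. The 3 lower were Cd36 (204 and 121 TPM in WT, 117 and 115 TPM in cKO), Retn and Slc2a4, so the list did not move in 1 direction. All 8 osteoblast markers were tested, 7 were lower in cKO and 0 higher, with Col1a1 at 297 to 434 TPM, and Spp1, the one not called, differed between the WT libraries (6714 and 16163 TPM). Of 9 marrow stromal markers 3 were higher and 5 lower, with Ly6a at 406 to 493 TPM and Cxcl12 at 135 to 238 TPM, while Lepr was at 0.21 to 0.60 TPM. Endothelial markers summed to 1.23 to 9.34 TPM (2 of 3 tested higher, 0 lower), with Emcn at 0.32 to 6.59 TPM and Kdr at 0.4 to 2.41 TPM. Muscle markers summed to 1.46 to 6.74 TPM (1 tested, lower), nearly all of it Acta1 at 1.45 to 6.74 TPM, with Ckm and Myog at 0.05 TPM or less and Myh2 at 0 in every library. Brown adipocyte markers summed to 0.68 to 11.9 TPM (2 of 3 tested lower, 0 higher), with Dio2 at 0.46 to 9.85 TPM and Cox8b at 0 to 1.24 TPM. In bulk RNA, fewer cells of a type and less RNA per cell cannot be told apart, and the part of any of these cell types in the results that follow was not tested.

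Across the members, both acyltransferases, the fusion protein, the general lipase and the coats Plin2 and Plin4 were lower in cKO, whereas the hormone-sensitive lipase and the adipocyte coat Plin1 were higher. Dgat1 was 4.45-fold lower, Cidec 5.80-fold, Plin4 3.33-fold and Dgat2 2.76-fold lower, while Lipe was 2.88-fold higher and Plin1 1.58-fold higher. Plin2 and Pnpla2, the members with the highest levels, were lower by 1.35-fold and 1.31-fold. Of the 10 members 9 passed the filter on low counts, and by edgeR's quasi-likelihood test (adjusted p under 0.05) 2 were called higher, against 13.7% of all 15327 genes tested, and 6 were called lower, against 16.8%. Only Plin3 was tested and not called. The groups did not overlap in CPM for 8 of the 9, against 68.9% of all genes tested, so with 2 libraries a group non-overlap alone is common. The median log2 fold change of the 9 was -0.43, beside -0.0038 for all genes tested. Under a stricter rule, an unadjusted p under 0.05 with at least a 2-fold change, Lipe was the 1 member called higher (3.31% of all genes) and Plin4, Cidec, Dgat1 and Dgat2 were the 4 called lower (7.2% of all genes).

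**Figure D1:**
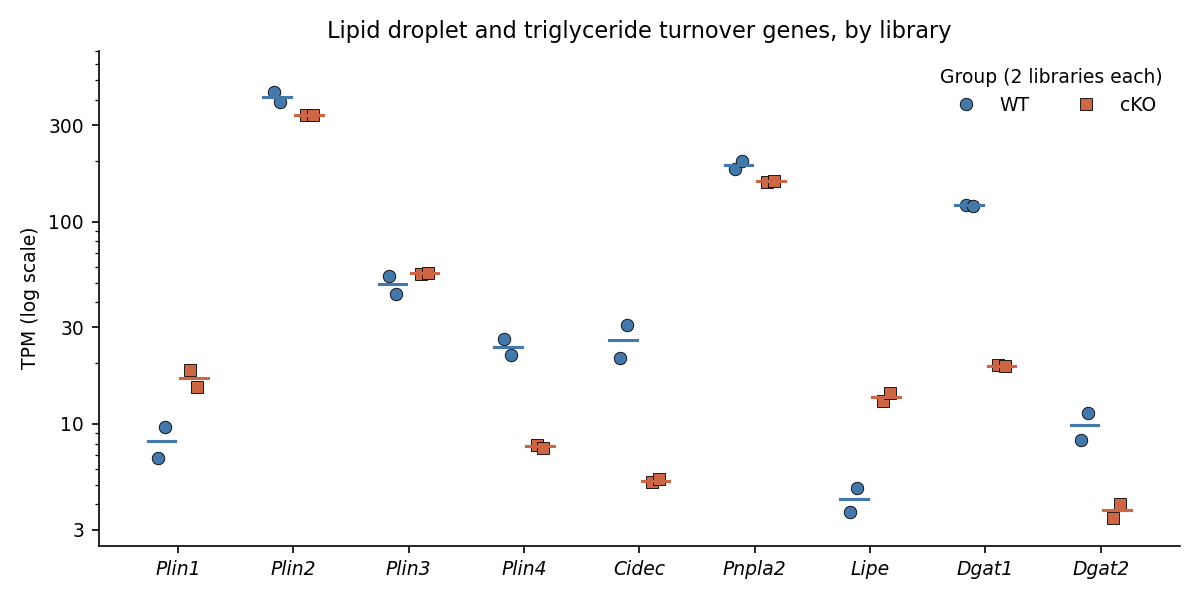
TPM (log axis) of each of the 9 members tested in each library, with circles for WT, squares for cKO and a short line at the mean of 2 libraries. Plin2 (336 to 439.9 TPM) lies highest in every library, and Dgat1 drops from 120.03 and 120.56 TPM in WT to 19.5 and 19.4 TPM in cKO.

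Levels between genes are compared here in TPM, which is scaled to transcript length. In WT the order from high to low was Plin2, Pnpla2, Dgat1, Plin3, Cidec, Plin4, Dgat2, Plin1, Lipe and Plin5. Neighbours in this order were separated by more than the spread of 2 libraries except Cidec and Plin4 (21.2 and 30.9 against 26.3 and 21.9 TPM) and Dgat2 and Plin1 (8.36 and 11.3 against 6.81 and 9.65 TPM). In cKO, Dgat1 had fallen behind Plin3, and Plin1 and Lipe stood above Plin4, Cidec and Dgat2. The ubiquitous coat Plin2 and the lipase Pnpla2 kept the top places in both groups.

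Among the perilipins, which cover the droplet surface and control the access of lipases to it, Plin2 (ENSMUSG00000028494, GRCm38 chr4:86648386-86670060, minus strand) is the coat found in most cell types. It was at 451.8 and 411.7 CPM in WT and 321 and 318 CPM in cKO, with 415 ± 34.5 TPM (SD, n = 2) in WT and 337 ± 1.58 TPM in cKO. Both cKO libraries lay below both WT libraries, and the log2 fold change was -0.43 ± 0.067 (SE), with an edgeR adjusted p of 0.00486. Plin1 (ENSMUSG00000030546, GRCm38 chr7:79720218-79732903, minus strand), the coat of adipocyte droplets that holds back basal lipolysis and is phosphorylated by protein kinase A when lipolysis is stimulated, was at 6.45 and 8.84 CPM in WT and 12.4 and 11.7 CPM in cKO. Its groups did not overlap, and the log2 fold change was 0.66 ± 0.17 (95% interval 0.26 to 1.06, edgeR adjusted p = 0.0277). Plin1 and Plin2 both lost the call when either cKO library was left out or when both were summed into 1 sample, with edgeR adjusted p-values of 0.0839 to 0.132.

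Plin3 (ENSMUSG00000024197, GRCm38 chr17:56278962-56290511, minus strand), a mostly cytosolic perilipin that binds newly forming droplets, overlapped between the groups. It was at 78.0 and 65.8 CPM in WT and 75.9 and 76.6 CPM in cKO, a log2 difference of 0.08 with a 95% interval from -0.13 to 0.30 (edgeR adjusted p = 0.527). The WT libraries decide this value, since it was 0.22 without WT replicate 1 and -0.035 without WT replicate 2. Plin5 (ENSMUSG00000011305, GRCm38 chr17:56111601-56117596, minus strand), the coat known from heart, liver and other tissues that burn fat, held 3 and 0 counts in WT and 0 and 2 in cKO. That is at or under the limit of 3 counts that a count of 0 allows, so no fold is given and a difference was not detectable at this depth.

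Plin4 (ENSMUSG00000002831, GRCm38 chr17:56100591-56109803, minus strand), a perilipin of adipocytes that binds small, newly made droplets through a long repetitive stretch, was the coat gene with the largest difference. Its counts corresponded to 111.5 and 94.3 CPM in WT and 31.6 and 30.3 CPM in cKO, or 24.1 ± 3.13 TPM (SD, n = 2) in WT and 7.76 ± 0.205 TPM in cKO. Both cKO libraries lay far below both WT libraries. The log2 fold change was -1.74 ± 0.095 (edgeR adjusted p = 8.47e-05), and the call held in each of 11 alternatives, between -1.86 and -1.51. In the table's GRCm38 positions it shares 6 bases with Hdgfrp2 on the other strand, which held 1027 to 1267 counts.

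Plin1 and Plin3 took a larger share of the perilipin transcripts in cKO, and Plin2 and Plin4 a smaller one. The TPM of Plin1 to Plin5 summed to 527 and 467 in WT and 417 in both cKO libraries. Shares of a lower sum can rise without a higher level, and Plin3 itself was not called (log2 fold change 0.08, edgeR adjusted p = 0.527). Plin2 made up 83.5% and 83.8% of it in WT and 80.5% and 81.1% in cKO. The share of Plin1 was 1.29% and 2.07% in WT and 4.42% and 3.67% in cKO, that of Plin3 10.2% and 9.46% in WT and 13.2% and 13.4% in cKO, and that of Plin4 went the other way, from 5.00% and 4.69% to 1.89% and 1.83%. The ratio of Plin1 to Plin4 TPM thus went from 0.259 and 0.441 to 2.34 and 2.01.

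**Figure D2:**
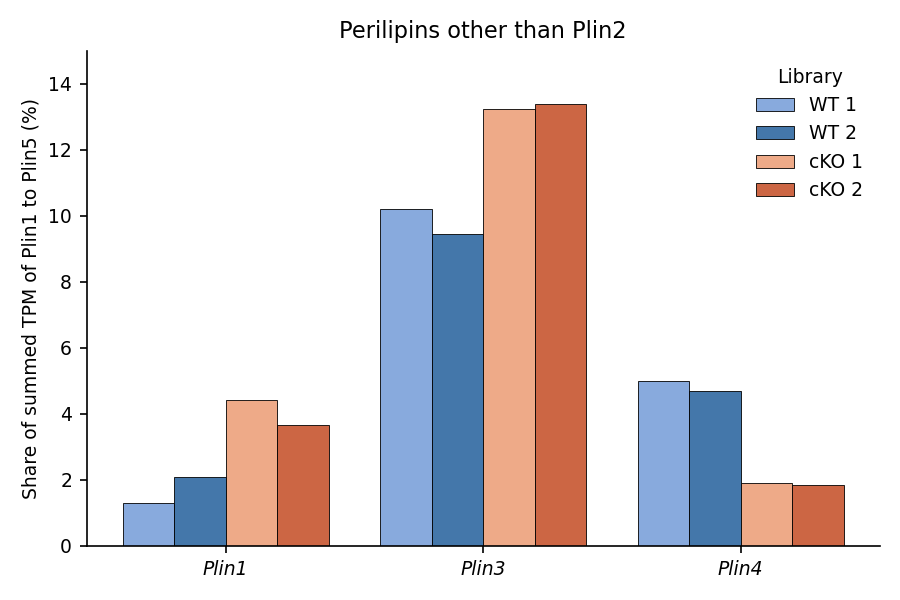
Share (%) of the summed TPM of the 5 perilipins taken by Plin1, Plin3 and Plin4 in each of the 4 libraries, on an axis starting at 0. Plin1 (4.42% and 3.67%) and Plin3 (13.2% and 13.4%) take more in both cKO libraries than in either WT library, and Plin4 takes less (1.89% and 1.83%). The sum was lower in cKO, and Plin3 itself was not called.

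Plin4 was also the 1 member of 10 (9 of them tested) with an m6A peak in wild type MSCs. Of the 14118 tested genes placed on mm9, 40.1% had a peak whose summit lay in the gene. This gene lies on the minus strand of mm9 at chr17:56240014-56249225 and has 2 of the 10160 deposited peaks. The upstream one spans chr17:56245554-56246714 in exon 5 of 9, with its summit at 56246267, a pileup of 96, a fold enrichment of 4.66 and a -log10 q of 30.4. The downstream one spans chr17:56243310-56245054, mostly in exon 6, with its summit at 56243974, a pileup of 101, a fold enrichment of 4.54 and a -log10 q of 31.0. Both are wide, 1161 and 1745 bases against a median of 301, and rank 110 and 21 by length among all peaks, while their fold enrichment is near the median of 4.03. The peaks come as 1 list for 4 samples, so they have no replicate error, and no MeRIP-seq sample of cKO was used here.

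Both peaks lie on a tandem repeat in the coding sequence (CDS). The Plin4 transcript of the GENCODE vM1 annotation has 5755 nt, 4212 of them coding. Shifted against itself by 99 bases (33 codons), the CDS is identical at 58.4% of positions, and by 297 bases at 59.9%, against a median of 25.4% over shifts of 20 to 400 bases. From base 397 to base 2970 of the CDS, 26 consecutive units of 99 bases follow each other, which is 61.1% of the CDS, and the 25 pairs of neighbours among them are identical at 62 to 98 positions. The exonic parts of the peaks cover 99.5% of this repeat, and 91.5% of those parts lie in it. The summits are 780 and 2479 bases into the CDS, and the second is 1733 bases from its last base, so neither is near the stop codon.

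The units are shown because the repeat multiplies the core of the m6A consensus, GGAC. The 2 units that hold the summits and the unit after each are printed 5′ to 3′ on the transcript strand, in mm9, with GGAC in capitals. Units were counted in steps of 99 bases from the start codon.
Plin4 unit with the upstream summit, chr17:56246255-56246353: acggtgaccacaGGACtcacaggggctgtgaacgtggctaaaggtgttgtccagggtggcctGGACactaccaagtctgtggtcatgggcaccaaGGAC
Plin4 unit after it, chr17:56246156-56246254: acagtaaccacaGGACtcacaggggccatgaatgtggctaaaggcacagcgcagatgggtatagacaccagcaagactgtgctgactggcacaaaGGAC
Plin4 unit with the downstream summit, chr17:56243879-56243977: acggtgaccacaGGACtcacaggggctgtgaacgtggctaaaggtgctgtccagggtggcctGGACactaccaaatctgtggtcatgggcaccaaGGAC
Plin4 unit after it, chr17:56243780-56243878: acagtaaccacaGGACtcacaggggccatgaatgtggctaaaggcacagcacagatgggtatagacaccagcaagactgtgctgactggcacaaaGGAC

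The unit with the upstream summit and the one with the downstream summit are identical at 97 of 99 bases although they lie in different exons, and the units that follow them at 98 of 99. Either summit unit and the unit printed after it share 74 of 99. Short reads from units this alike can be placed in more than 1 of them, so the position of a summit within the repeat is uncertain, and how the authors' mapping treated such reads was not tested.

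The CDS of Plin4 holds 67 GGAC, and 56 of them (83.6%) begin at base 96 (26 of them), 63 (18) or 13 (12) of a unit. Of the 71 GGAC of the whole transcript, 59 lie under a peak. At 12.3 GGAC per kb, Plin4 has a density that 0.185% of 13485 tested genes with a coding transcript reach or pass, where the median is 4.26 per kb. The other members range from 2.22 per kb (Dgat2, with 0 in its CDS and 5 in its 3′UTR) to 7.05 per kb (Plin5), and none of these 9 has a peak. Lipe, with 24 GGAC in 3713 nt, and Plin3, with 14 in 2159 nt, are above the upper quartile of 5.59 per kb without one. In the WT RNA-seq libraries Plin5 was at 0.07 TPM or less and Lipe at a mean of 4.24 TPM. Whether a peak could be called at such levels was not tested. A match to 4 bases is a description and not a methylated site, and since the depth of the MeRIP-seq samples is unknown, the lack of a peak does not show that a transcript carries no m6A.

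**Figure D3:**
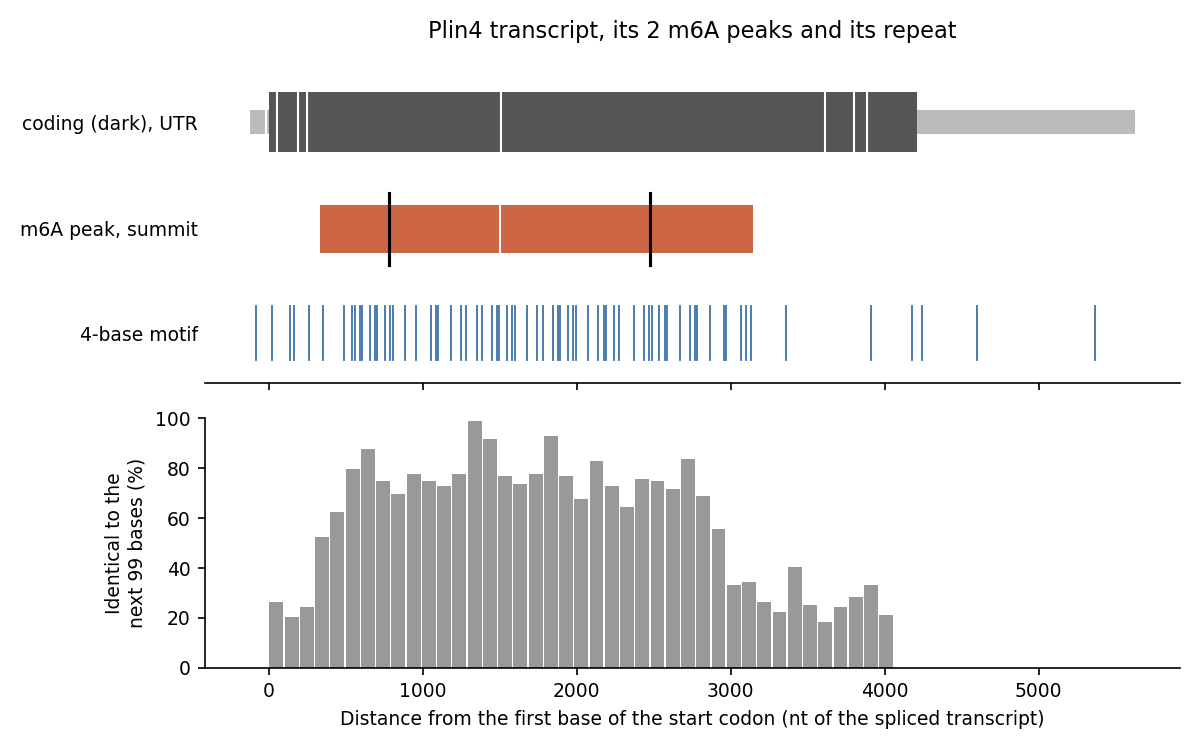
Upper panel, the spliced Plin4 transcript (coding part dark, untranslated parts light, white lines at exon borders) with its 2 m6A peaks and their summits (black lines) and each 4-base m6A core motif as a tick, by distance in nt from the start codon. Lower panel, identity (%) of each 99-base unit with the next; the stretch in which units resemble each other holds 56 of the 71 motifs, and 59 lie under a peak.

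Cidec (FSP27, ENSMUSG00000030278, GRCm38 chr6:113424634-113435760, minus strand), which joins droplets at their contact sites and moves lipid from the smaller to the larger one, had the largest fold of the members in counts, and in TPM it came after Dgat1. It was at 20.5 and 28.1 CPM in WT and 4.13 and 4.20 CPM in cKO, or 26.1 ± 6.84 TPM (SD, n = 2) in WT and 5.24 ± 0.127 TPM in cKO. The higher cKO library was far below the lower WT library. The log2 fold change was -2.54 ± 0.18 (edgeR adjusted p = 0.000231), and a change as large or larger was seen in 2.69% of all genes tested. Its call held in each of 11 alternatives, between -2.74 and -2.09.

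The lipases moved in opposite directions. Pnpla2 (ENSMUSG00000025509, GRCm38 chr7:141455198-141460743, plus strand), which starts the breakdown of triglyceride and is active in most cells, was at 234 and 268 CPM in WT and 189.9 and 193.6 CPM in cKO, or 191 ± 11.7 TPM (SD, n = 2) in WT and 158 ± 0.856 TPM in cKO. Its groups did not overlap, and the log2 fold change was -0.39 ± 0.079 (edgeR adjusted p = 0.0130). As for Plin2, the call was lost without either cKO library or with both summed (edgeR adjusted p = 0.116 to 0.143). Lipe (ENSMUSG00000003123, GRCm38 chr7:25379527-25398710, minus strand), the hormone-sensitive lipase of adipocytes and steroid-making cells, was at 7.57 and 9.98 CPM in WT and 24.4 and 25.9 CPM in cKO, or 4.24 ± 0.806 TPM in WT and 13.6 ± 0.933 TPM in cKO. Both cKO libraries stood well above both WT libraries, with a log2 fold change of 1.53 ± 0.14 (edgeR adjusted p = 0.000696) that held in each of 11 alternatives, between 1.34 and 1.73. The ratio of Pnpla2 to Lipe TPM fell from 49.9 and 41.5 in WT to 12.2 and 11.1 in cKO. Over its whole length Lipe overlaps 4732471J01Rik on the other strand, and reads of the pair cannot be told apart without strand. That gene was credited with 7 to 12.2 counts, against 256 to 827 for Lipe.

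Both enzymes of the final acylation step were lower in cKO. Dgat1 (ENSMUSG00000022555, GRCm38 chr15:76502015-76511951, minus strand), an acyltransferase of the endoplasmic reticulum, was at 81.3 and 88.4 CPM in WT and 19.4 and 18.7 CPM in cKO. WT replicates were close to each other, cKO replicates closer still, and the log2 fold change of -2.15 ± 0.077 (95% interval -2.34 to -1.97, edgeR adjusted p = 1.59e-05) had the lowest p of the members. A change as large or larger was seen in 3.58% of all genes tested. Dgat2 (ENSMUSG00000030747, GRCm38 chr7:99153658-99182719, minus strand), the structurally unrelated enzyme that also works at the droplet surface, was at 12.5 and 16.9 CPM in WT and 4.99 and 5.62 CPM in cKO. Its log2 fold change was -1.46 ± 0.18 (edgeR adjusted p = 0.00191), and both enzymes kept their calls in each of 11 alternatives. The intervals of the differences, -2.34 to -1.97 for Dgat1 and -1.89 to -1.04 for Dgat2, do not overlap, and the difference between them was not tested itself. Per length, Dgat1 exceeded Dgat2 by 14.4 and 10.6 times in WT and 5.66 and 4.81 times in cKO.

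The size of the Dgat1 and Plin1 differences depended on the scale. In TPM, Dgat1 was 6.19-fold lower (120.3 against 19.4 TPM) instead of 4.45-fold in counts, and Plin1 was 2.05-fold higher (8.23 against 16.9 TPM) instead of 1.58-fold. For Dgat1 the CPM per TPM went from 0.706 in WT to 0.981 in cKO, and for Plin1 from 0.929 to 0.714. For the other 7 members tested, the log2 ratios in TPM and in CPM differed by 0.076 to 0.23. Whether other transcript isoforms were used in the groups was not tested, since no table of transcripts was used here.

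**Figure D4:**
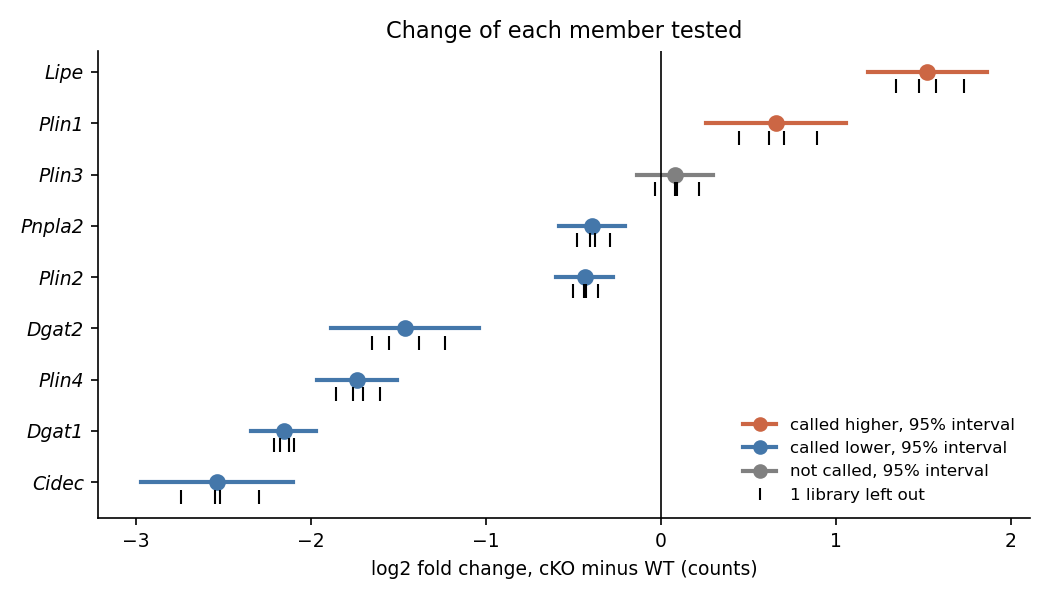
Log2 fold change (cKO minus WT, from counts) of the 9 members tested, with points for the estimate, bars for the 95% interval and ticks for the values with 1 library left out. Lipe and Plin1 lie right of 0 and 6 members lie left of it, Plin3 spans it, and the ticks of Plin3 alone fall on both sides.

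A list of 57 other genes of droplets and triglyceride turnover places the members among their partners. Of these 56 were found and 48 tested, and 5 were called higher and 19 lower in cKO, with a median log2 fold change of -0.18. That is 10.4% higher and 39.6% lower, beside 13.7% and 16.8% of all genes. The counts moved with the libraries used, since without cKO replicate 1 they were 0 and 12 and without cKO replicate 2 they were 0 and 8, while without WT replicate 1 they were 11 and 25 and without WT replicate 2 they were 8 and 19.

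Of 15 lipolysis genes tested, 6 were called lower and 1 higher. Hilpda, an inhibitor of Pnpla2 induced by low oxygen, was 3.03-fold lower (37.6 and 29.9 TPM in WT, 12.2 and 11.7 TPM in cKO, edgeR adjusted p = 0.000386). Pnpla3 (2.74-fold lower, 0.16 to 0.5 TPM) and the glycerol channel Aqp7 (2.38-fold lower, 0.71 to 1.71 TPM) were called at low levels, with edgeR adjusted p-values of 0.0309 and 0.0208. Of 11 alternatives, 7 did not call Pnpla3 (largest adjusted p 0.162) and 2 did not call Aqp7 (largest adjusted p 0.166). Of the other regulators of Pnpla2, Abhd5 and G0s2 are named here after their values were seen. Abhd5, its activator, was 1.48-fold lower (86.2 and 98.0 TPM in WT, 60.2 and 64.0 TPM in cKO, edgeR adjusted p = 0.0038). G0s2, also an inhibitor, was at 10.8 and 16.3 TPM in WT and 22.6 and 23.8 TPM in cKO. With a log2 fold change of 0.67 it missed the threshold (edgeR adjusted p = 0.0624). It was called with the replicate block (edgeR adjusted p = 0.0149), with no filter and with DESeq2 (adjusted p = 0.0466). Median-of-ratios size factors and both limma fits did not call it (limma adjusted p = 0.105 and 0.0692). With a library left out its log2 fold change was 0.37 to 1.05, and with the cKO libraries summed it was 0.68. The ratio of Abhd5 to G0s2 TPM was 8 and 6.00 in WT and 2.67 and 2.68 in cKO. This ratio leaves out Hilpda, the inhibitor that was lower in cKO, so it does not describe the inhibitors of Pnpla2 as a group.

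Of 18 genes of glycerolipid synthesis tested, 9 were called lower and 1, the phosphatidate phosphatase Lpin2, was called higher. Gpat3, a glycerol-3-phosphate acyltransferase, was 2.78-fold lower at 0.55 to 1.62 TPM (edgeR adjusted p = 0.00566), and Gpd1, which makes glycerol-3-phosphate, was 2.06-fold lower at 3.64 to 9.22 TPM (edgeR adjusted p = 0.00988). Mogat2, which acylates monoacylglycerol, held 17 and 19 counts in WT and 5 in each cKO library, and its call (edgeR adjusted p = 0.044) was lost in 8 of 11 alternatives. The remaining genes called lower in this group include the fatty acid activating enzymes Acsl1, Acsl3 and Acsl4, by 1.26-fold to 1.74-fold. Of 11 alternatives, 3 each did not call Lpin2 and Acsl1, 5 did not call Acsl4, and all called Acsl3.

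Of 15 genes of droplet assembly and surface tested, 4 were called lower and 3 higher. Their median log2 fold change was -0.025, beside -0.0038 for all genes tested. Mest, a protein of the endoplasmic reticulum tied to fat cell enlargement and expressed from the paternal allele, went from 102.5 and 117 TPM in WT to 2.82 and 3.36 TPM in cKO, which was 38.6-fold lower (log2 fold change -5.27 ± 0.12, edgeR adjusted p = 3.6e-06). No other gene of these lists differed as much. Fitm2, which partitions triglyceride into nascent droplets, was 2.03-fold lower (13.4 and 14.3 against 6.79 and 7.81 TPM, edgeR adjusted p = 0.000806), and Hsd17b7, a sterol-synthesis enzyme found on droplets, was 1.92-fold lower (edgeR adjusted p = 0.00114). Seipin (Bscl2), which organises the sites where droplets form, was also called lower, by 1.25-fold. The 3 called higher were the lipid transfer protein Vps13c (1.52-fold, edgeR adjusted p = 0.0357), the phosphatidylcholine synthesis enzyme Pcyt1a (1.26-fold, edgeR adjusted p = 0.0320) and Hsd17b11 (1.16-fold, edgeR adjusted p = 0.0362), a dehydrogenase found on droplets. Of 11 alternatives, 5 each did not call Bscl2, Vps13c and Pcyt1a, and 7 did not call Hsd17b11.

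**Figure D5:**
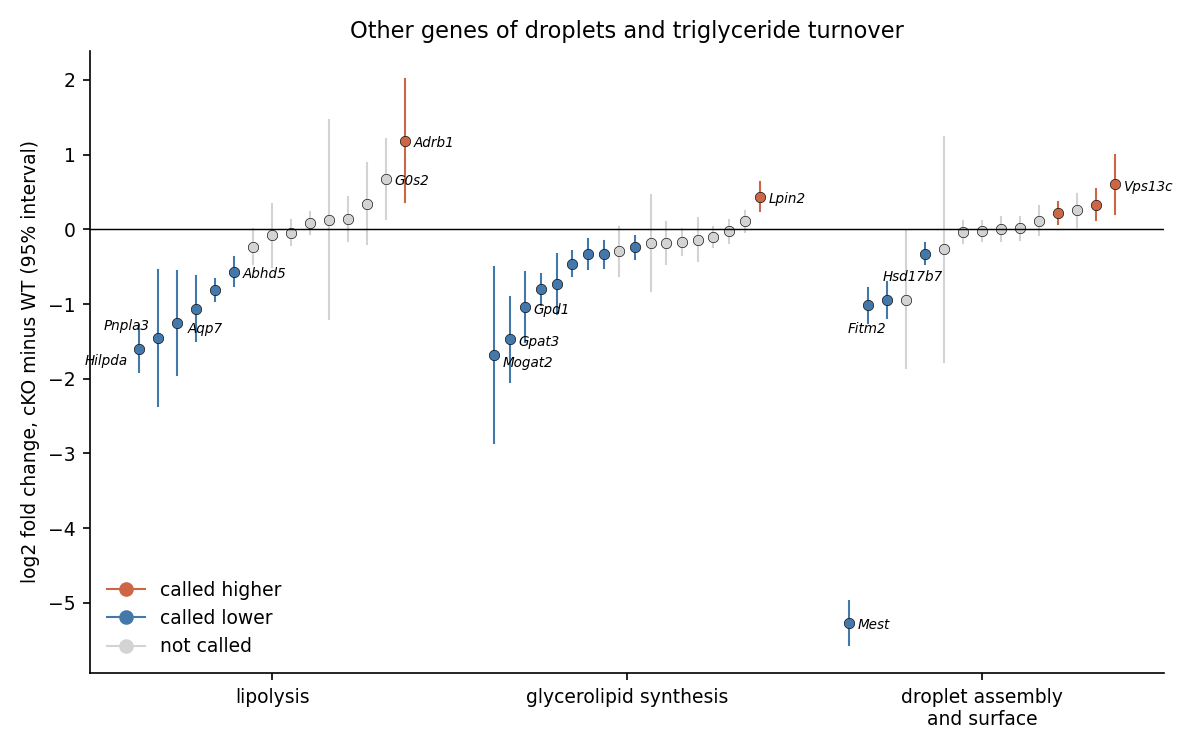
Log2 fold change (cKO minus WT) with 95% interval of the 48 tested genes of the pathway list, in 3 groups by role and ordered by value within each. In all 3 groups more genes are called lower (6, 9 and 4) than higher (1, 1 and 3), by a narrow margin in droplet assembly. Over all genes tested, 16.8% are called lower and 13.7% higher. Mest lies far below the rest at -5.27.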

How the data were processed

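RNA-seq data of 2 WT and 2 cKO libraries and 1 m6A peak list of 4 MeRIP-seq samples were used. The members and gene lists were chosen with earlier results of these data known. The authors mapped RNA-seq reads with HISAT2 2.0.4 and deposited estimated counts per gene, without normalization, in a table with GRCm38 positions. How reads were counted, and whether by strand, is not given in the sources used here. The authors also deposited a value headed FPKM that sums to 1000000 in each library and is therefore TPM. The labels also name TopHat, MACS2, mm10 and mm9. The deposited peak list, in the layout of MACS2 output, gives mm9 positions, a pileup signal per summit, a fold enrichment (a ratio to the local background) and a −log10 q-value, all from the authors' peak caller; its column of p-values was not used. The authors' paper does not say how the MeRIP samples were combined.

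Of 47732 entries, 89 had no gene name, held 0.110% to 0.125% of the counts and were left out. Estimated counts were rounded, filtered (filterByExpr, minimum count 10), given TMM factors and fitted by edgeR 4.0.16 (quasi-likelihood F test, two-sided, no block, 15327 genes) with Benjamini-Hochberg adjustment and a threshold of 0.05, in R 4.3.3. The steps were tested on simulated data in which WT and cKO libraries had the same spread, unlike the libraries here. The paper's Ballgown test needs transcript coverage and was replaced. CPM are TMM-scaled. A limit of 3 counts was used for a count of 0, which covers counting error only. A peak belonged to the gene (GENCODE vM1) that held its summit, and GGAC was counted in the transcript with the longest CDS of each gene. Named are all members, of each group of the pathway list the 3 largest changes among called genes, of each marker list the 2 highest genes and markers at 0, Mettl3, and genes overlapping a member. Other genes named were chosen after their values were seen. Of 57 pathway genes, Ldaf1 was not matched, and Gpat3 and Spart were found under the names Agpat9 and Spg20. Alternatives were the replicate number as a block, median-of-ratios size factors, no filter, DESeq2 1.42.0, limma 3.58.1 on log2(TPM + 0.1) and log2(TPM + 1), each library left out, the cKO libraries summed, the paper's call rule, and 3 other rules for peaks.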

Additional observations from a re-analysis of the deposited data

How the results depend on the processing

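Dgat1, Cidec, Plin4, Dgat2 and Lipe kept their direction and their call in each of 11 alternatives, whereas Plin1 lost its call in 4 of them and Plin2 and Pnpla2 in 5 each, all without a change of direction. The value of Plin3 changed sign in 1 alternative, to -0.035 without WT replicate 2, and passed the threshold in another, at 0.22 without WT replicate 1. The 2 members called higher became 1 with limma on log2(TPM + 0.1), with the cKO libraries summed and under the rule of an unadjusted p under 0.05 and at least a 2-fold change, and 1 to 3 with a library left out. The 6 members called lower became 4 with limma on log2(TPM + 0.1) and log2(TPM + 1), with the cKO libraries summed and under the 2-fold rule, and 4 to 6 with a library left out. Of the pathway list, the 5 genes called higher became 1 and 2 with limma on log2(TPM + 0.1) and log2(TPM + 1), 0 with the cKO libraries summed, 1 under the 2-fold rule and 0 to 11 with a library left out. The 19 called lower became 10 and 11 in these limma fits, 11 with the cKO libraries summed, 9 under the 2-fold rule and 8 to 25 with a library left out. With 1 library in a group, that library is assumed to vary like the other group. Without a WT library the spread was thus that of the cKO pair alone (chi-square over degrees of freedom 1.82, against 32.6 for WT), so a call kept there adds little. The cause of these changed counts was not tested further. Over all genes, 4677 were called, 2012 with the cKO libraries summed, 2060 with limma on log2(TPM + 0.1), 2858 with limma on log2(TPM + 1), and 1867 to 8750 with a library left out. With log2(TPM + 1) the share of calls that were higher was 55.3%, against 44.9%.

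WT and cKO libraries share only a replicate number, and the deviations of the same-numbered libraries from their group means correlated at 0.0276. With the replicate block, 2 members were called higher and 6 lower, 6 and 18 genes of the pathway list, and 4881 genes in all, and no member changed its call. Of the other genes named outside the marker lists, Mogat2 and Hsd17b11 lost a call under the block, and G0s2 and Spart gained one, as did the marker Spp1. The 1 member with a peak stayed 1 with a −log10 q of at least 5, a fold enrichment of at least 3, or any base of a peak in an exon. Plin5, Pnpla3 and Mogat2 are limited by their low counts.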

Other observations

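Of the 56 genes of the pathway list that were found, 24 had at least 1 m6A peak in wild type MSCs, and all of these were among the 48 tested. By role these were 8 of 15 lipolysis genes tested, 11 of 18 genes of glycerolipid synthesis tested and 5 of 15 genes of droplet assembly and surface tested. By outcome they were 3 of 5 genes called higher in cKO, 7 of 19 called lower and 14 of 24 not called, beside 40.1% of all tested genes placed on mm9. Among the regulators of Pnpla2, G0s2 had 1 peak with a fold enrichment of 7.18 and a pileup of 22, and Abhd5 had 1 with a fold enrichment of 2.27 and a pileup of 45, while Hilpda had 0. Adrb1, the β1-adrenergic receptor that starts the hormonal signal to Lipe, was the 1 lipolysis gene called higher in cKO (1.27 and 0.672 CPM in WT, 2.27 and 2.23 CPM in cKO, log2 fold change 1.19 ± 0.34). It had 1 peak with a fold enrichment of 11.5, which ranks 158 among the 10160 peaks. The pileup of this peak was low, at 27 (rank 8029) against a median of 60. The call of Adrb1 (edgeR adjusted p = 0.0425) was lost in 5 of 11 alternatives, with DESeq2, with limma on log2(TPM + 0.1), without either cKO library and with the cKO libraries summed (adjusted p of 0.0818 to 0.164). These genes were chosen after their values were seen.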
